A study of Mus musculus with 6 samples.

Results

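Natural killer (NK) cells read the health of other cells through sets of activating and inhibitory surface receptors, and kill or release cytokines when activating input prevails. Most of the mouse receptors are C-type lectin-like proteins of the killer cell lectin-like receptor (Klr) family, whose genes lie together in the NK gene complex. The inhibitory ones recruit phosphatases through motifs in their tails, whereas the activating ones signal through adaptor proteins such as DAP12, DAP10, the Fc receptor gamma chain and CD3 zeta. NK cells enter the heart after infarction among many other leukocytes, and several Klr receptors are also carried by activated CD8 T cells, NKT cells and other innate lymphoid cells.

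The transcripts of 8 such receptors were followed in infarcted mouse hearts: *Ncr1*, *Klrb1c*, *Klrd1*, *Klrk1*, *Klrc1*, *Klrc2*, *Klre1* and *Klrg1*. They were taken by gene name from a table of 54532 genes, and 7 of the 8 were among the 15520 genes with enough fragments to be tested. *Klrg1* was under that filter and is given by its values only. *Ncr1* encodes NKp46, which belongs to another protein family but marks NK cells most closely, and the other genes belong to the Klr family.

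RNA was sequenced from peri-infarcted and infarcted heart tissue on day 7 after ligation of a coronary artery (myocardial infarction, MI), 1 library per mouse, from 3 wild-type (WT) mice and 3 *Crlf2-/-* mice, in which the receptor for thymic stromal lymphopoietin (TSLPR) is knocked out in the whole animal. Both groups had a C57BL/6J background and both had undergone MI. The methods describe the WT mice as males of 8 to 12 weeks bought from one supplier and the *Crlf2-/-* mice as generated by another company, so genotype and origin followed the same line between the groups and cannot be told apart. The comparison asks which transcripts differ in the infarcted heart when TSLP cannot signal.

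Each library held between 18508646 and 19682428 fragments on listed genes. *Crlf2* itself was at 26.8, 24.9 and 21.6 FPKM (fragments scaled to gene length and library size) in the WT libraries and at 13.2, 18.6 and 19.9 FPKM in the *Crlf2-/-* libraries. The groups did not overlap, the log2 difference was -0.52, and the adjusted p was 0.521 (limma). Transcript was thus counted from the gene in all 6 libraries, and which part of the gene the allele lacks is not given in the sources used here, so this level does not check the labels at the deleted part. Levels of marker transcripts of several cell types also differed between the libraries. The summed level of 8 cardiomyocyte markers ran from 1030 to 1931 FPKM in WT and from 691 to 1339 FPKM in *Crlf2-/-* libraries, and that of 5 red blood cell markers from 226 to 366 and from 85.4 to 161 FPKM. The sum of 6 fibroblast markers was 5914 to 7067 FPKM in WT and 7119 to 7235 FPKM in *Crlf2-/-* libraries. All 7 dendritic cell markers had log2 differences below 0 (median -0.42), with sums of 13.8 to 17.9 and 8.69 to 14.5 FPKM. Of these 7, 2 had an unadjusted p under 0.05 (limma), against 6.58% of all genes tested. The 14 T cell markers summed to between 29.1 and 41.7 FPKM in WT and to between 15.7 and 18.4 FPKM in *Crlf2-/-* libraries.

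Of the 8 genes, 7 are on mouse chromosome 6, and 6 of these lie within 900 kb of each other in the NK gene complex, at chr6:128778485-129678973 (GRCm38, GENCODE M21, whose gene starts and ends match the table for all 8). *Klrg1* lies apart from them at chr6:122270596-122282882, and *Ncr1* is on chromosome 7 at chr7:4337724-4345164. RefSeq promoters (GRCm38.p6, 250 bases before to 50 after a start) were at hand for 6 of the 8 genes, all but *Klrd1* and *Klrg1*. Runx3 is a transcription factor of cytotoxic lymphocytes, and the letters TGTGGT, the core that RUNX factors bind, stood on one strand or the other in 8 of the 9 promoters of these 6 genes, against 16.8% of 32851 RefSeq promoters. Each gene had at least 1 such promoter, and the second promoter of *Klre1* held none of these letters. *Ncr1*, *Klrc2* and *Klre1* each had promoters that overlap, and those of *Ncr1* and of *Klrc2* hold the same RUNX letters. The 9 promoters are thus not 9 separate sequences. Of the 6 genes, only *Ncr1* is on another chromosome. The others are neighbouring genes of the Klr family, and how alike their promoters are was not tested. The share over all promoters does not allow for such kinship. The windows of 30 bases around the RUNX letters are shown because each of the 6 genes had them. They read 5′ to 3′ on the strand of the gene, with the RUNX letters, or their reverse complement ACCACA, in capitals.
Ncr1, chr7:4337527-4337556, plus strand: ttagatccaaaaTGTGGTtaaatgtgttat
Ncr1, chr7:4337662-4337691, plus strand: caggcctcacccACCACAtcctgtgcatct
Klrb1c, chr6:128788713-128788742, minus strand: aggaaggaaagcTGTGGTcatggtgttttg
Klrk1, chr6:129623976-129624005, minus strand: tgatagctgtgcTGTGGTtgtgtgggggtt
Klrc1, chr6:129679043-129679072, minus strand: gttgttgttgttACCACAgcactcgtattc
Klrc2, chr6:129660615-129660644, minus strand: ttcaatagaatcACCACAgcatagaacaca
Klrc2, chr6:129660588-129660617, minus strand: acaagtagaattACCACAgagcccagaatt
Klre1, chr6:129577972-129578001, plus strand: ttgtgtttaagcTGTGGTtccagagagtca

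Relative to the RefSeq start, the RUNX letters began at -176 and -41 in *Ncr1*, -89 in *Klrb1c*, -129 in *Klrk1*, -87 in *Klrc1*, -36 and -9 in *Klrc2* and -229 in *Klre1*. From the other RefSeq start, the same letters began at -185 and -50 in *Ncr1* and at -76 and -49 in *Klrc2*. In GENCODE M21 the letters of *Ncr1*, *Klrk1* and *Klrc1* lay upstream of the gene, that of *Klrb1c* in an intron, and those of *Klrc2* and *Klre1* in an exon of the gene. The T-box letters AGGTGT, read by T-bet and Eomes, stood in 0 of the 9 promoters (13.7% of all promoters), and the ETS letters AGGAAG in 2 of the 9, 1 of *Klrb1c* and 1 of *Klre1* (35.4% of all promoters). Both strands were searched, and none of these letter matches shows binding. The window of *Klrb1c* opens with ETS letters. *Runx3* was at 2.51 ± 0.251 FPKM in WT and 2.60 ± 0.382 FPKM in *Crlf2-/-* hearts (SD, n = 3), a log2 difference of 0.04.

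None of the 7 tested NK receptor genes was found to differ between *Crlf2-/-* and WT hearts. By limma on log2(FPKM + 0.1), 0 of 7 had an adjusted p of at most 0.05 with a log2 difference of at least 0.5, where 0.0129% of all genes tested did (2 genes, *Wdfy1* and *Ighg2b*). An unadjusted p under 0.05 was reached by 0 of 7, against 6.58% of all genes, and limma-voom on the fragments behind the FPKM also called 0 of 7. In 0 of the 8 genes did the WT and *Crlf2-/-* libraries fall into separate ranges, which 11.7% of all genes tested did. The log2 differences were above 0 in 6 genes and below 0 in 1, *Klrc1*, with a median of 0.11 beside -0.0042 over all genes. That median was -0.022 without *Crlf2-/-* replicate 1, 0.25 without *Crlf2-/-* replicate 2, 0.19 without WT replicate 3, 0.04 without WT replicate 2 and 0.06 without *Crlf2-/-* replicate 3. Their adjusted p-values ran from 0.943 to 0.996. A p that misses the threshold does not show equal levels, and the intervals given with each gene show the range of differences that these 6 libraries leave possible. In bulk tissue, fewer cells of a type and less RNA per cell cannot be told apart. By flow cytometry, the study reported that NK cell numbers in *Crlf2-/-* hearts were not altered after MI, a count of cells and not of transcripts. It also reported more CD45-positive cells, neutrophils, monocytes and macrophages in these hearts, and fewer dendritic cells, as numbers per gram of tissue.

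**Figure D1:**
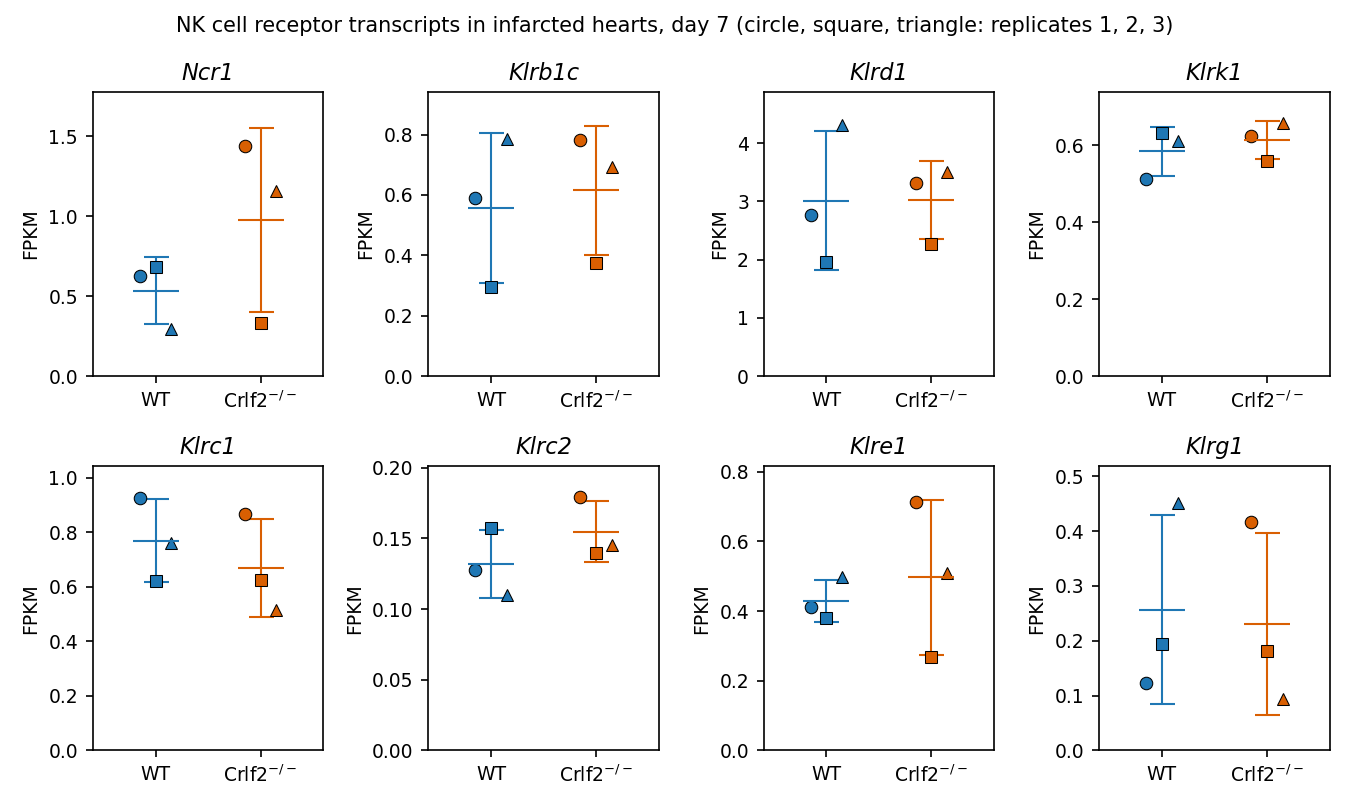
FPKM of the 8 NK receptor genes in each heart library (circle, square and triangle are replicates 1, 2 and 3 of each group), with the mean as a horizontal bar and the SD as whiskers (n = 3). The WT and *Crlf2-/-* points share a range in all 8 panels, and *Klrk1* is the gene with the narrowest spread relative to its mean.

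Per length, *Klrd1* had the highest level of the 8 genes and *Klrc2* the lowest. In WT hearts the order of mean levels was *Klrd1* at 3.01 FPKM, *Klrc1* at 0.769, *Klrk1* at 0.584, *Klrb1c* at 0.557, *Ncr1* at 0.535, *Klre1* at 0.430, *Klrg1* at 0.257 and *Klrc2* at 0.132 FPKM. The lowest WT library for *Klrd1* was above the highest for any other gene of the set. From *Klrc1* to *Klrg1*, neighbours in this order had overlapping WT libraries and are not resolved from each other, but *Klrc1* and *Klrk1* lay wholly above *Klre1* and *Klrg1*. *Klrc2* overlapped with *Klrg1* but lay under all other genes.

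Among the activating receptors, *Ncr1* had the largest log2 difference, and its higher *Crlf2-/-* mean rested on 2 of the 3 hearts. NKp46 pairs with CD3 zeta and the Fc receptor gamma chain. Its transcript was at 0.625, 0.683 and 0.297 FPKM in WT, from 22, 23 and 10 fragments, and at 1.44, 0.333 and 1.16 FPKM in *Crlf2-/-* hearts, from 49, 12 and 40 fragments. *Crlf2-/-* replicates 1 and 3 were above all WT hearts, while replicate 2 lay within the WT range. The means were 0.535 ± 0.208 and 0.977 ± 0.576 FPKM (SD, n = 3), a log2 difference of 0.63 (SE 0.49, 95% interval -0.50 to 1.77). The adjusted p was 0.943 (limma) and the exact two-sided permutation p was 0.3, where 3 against 3 libraries cannot go below 0.1. The log2 difference depended on single hearts: it was 1.20 without *Crlf2-/-* replicate 2 (adjusted p = 0.656, limma), 0.28 and 0.43 without *Crlf2-/-* replicates 1 and 3, and 0.32 without WT replicate 3.

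*Klrb1c* encodes NK1.1, the antigen by which NK cells of C57BL/6 mice are usually identified. Its level was 0.591, 0.293 and 0.786 FPKM in WT and 0.780, 0.375 and 0.691 FPKM in *Crlf2-/-* hearts, on 19 to 51 fragments per library. Replicate 2 was the lowest of its group in both genotypes, and the 2 ranges nearly coincided. The log2 difference was 0.15 (SE 0.36, interval -0.67 to 0.98, adjusted p = 0.996 by limma). *Klrb1c* shares 413 exon bases with *Gm44511* on the same strand, so the count of fragments there is uncertain.

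*Klrk1* encodes NKG2D, which signals through DAP10 and DAP12 and recognises stress-induced ligands. It was the steadiest of the 8, at 0.511, 0.630 and 0.610 FPKM in WT and at 0.624, 0.559 and 0.657 FPKM in *Crlf2-/-* hearts, on 84 to 106 fragments. The ranges overlapped. Its coefficient of variation was 10.9% in WT and 8.13% in *Crlf2-/-* hearts, where counting error alone gives 10.4% and 10.02%. The log2 difference was 0.06 (SE 0.19, interval -0.38 to 0.51, adjusted p = 0.996 by limma).

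*Klrd1* encodes CD94, the common partner of NKG2A and NKG2C. Its level was 2.76, 1.96 and 4.31 FPKM in WT and 3.32, 2.27 and 3.51 FPKM in *Crlf2-/-* hearts. The WT hearts spanned more than the *Crlf2-/-* hearts and enclosed all 3 of them. With means of 3.01 ± 1.19 and 3.03 ± 0.670 FPKM (SD, n = 3), the log2 difference was 0.05 (SE 0.28, interval -0.60 to 0.71) and the exact permutation p was 1.0. The coefficient of variation of *Klrd1* was 39.6% in WT and 22.1% in *Crlf2-/-* hearts, against 10.8% and 10.7% from counting, so its spread was larger than counting error. With 1 library per mouse, differences between mice, dissection and library preparation cannot be told apart.

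*Klrc1* encodes NKG2A, which joins CD94 to form the inhibitory receptor for Qa-1, and *Klrc2* encodes NKG2C, which joins CD94 to form an activating receptor through DAP12. *Klrc1* was at 0.926, 0.622 and 0.759 FPKM in WT and at 0.868, 0.624 and 0.516 FPKM in *Crlf2-/-* hearts. Only *Crlf2-/-* replicate 3 was under the WT range, and the log2 difference was -0.19 (SE 0.24, interval -0.74 to 0.37, adjusted p = 0.993 by limma). *Klrc2* was at 0.128, 0.157 and 0.110 FPKM in WT and at 0.179, 0.140 and 0.145 FPKM in *Crlf2-/-* hearts, on 14 to 23 fragments. Here only *Crlf2-/-* replicate 1 was above the WT range, and the log2 difference was 0.14 (SE 0.22, interval -0.36 to 0.63, adjusted p = 0.995 by limma).

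The ratio of the inhibitory to the shared chain, *Klrc1* over *Klrd1* FPKM, was 0.276 ± 0.0869 in WT and 0.228 ± 0.0703 in *Crlf2-/-* hearts (SD, n = 3, exact permutation p = 0.5). The ratio of the activating to the inhibitory chain, *Klrc2* over *Klrc1*, was 0.179 ± 0.0644 and 0.237 ± 0.0395 (SD, n = 3, exact permutation p = 0.3). The ranges of both ratios overlapped between the groups. The transcripts of *Klrc1* and *Klrc2* are partly identical: 14.6% of the 100-base windows of *Klrc1* and 7.09% of those of *Klrc2* occur in a neighbouring gene, so fragments of these genes, and so these ratios, are uncertain where they fall there.

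*Klre1* encodes a receptor that pairs with the products of *Klri1* or *Klri2*. *Klre1* was at 0.413, 0.380 and 0.497 FPKM in WT and at 0.713, 0.269 and 0.509 FPKM in *Crlf2-/-* hearts. The *Crlf2-/-* hearts held the highest, the second highest and the lowest of the 6 values. Their coefficient of variation was 44.7%, against 14.0% in WT, with 16.0% and 17.3% from counting. The log2 difference was 0.11 (SE 0.31, interval -0.60 to 0.81, adjusted p = 0.996 by limma). Its partner *Klri2* was at 0.380, 0.374 and 0.385 FPKM in WT and at 0.336, 0.207 and 0.330 FPKM in *Crlf2-/-* hearts. All *Crlf2-/-* hearts were lower for *Klri2*, with a log2 difference of -0.31 (SE 0.22, adjusted p = 0.934 by limma). Groups did not overlap in 11.7% of all genes tested. *Klri1* was under the filter, with 4 to 12 fragments per library.

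*Klrg1*, an inhibitory receptor for cadherins found on mature NK cells and on effector T cells, was near the limit of detection. The WT hearts gave 4, 6 and 14 fragments of it, the *Crlf2-/-* hearts 13, 6 and 3, or 0.124, 0.194 and 0.452 FPKM and 0.416, 0.181 and 0.0944 FPKM. Both groups ran from very few fragments to over 10, and no difference could be detected at this depth (exact permutation p = 0.7). The signs of *Klrb1c*, *Klrd1*, *Klrk1* and *Klre1* turned when single libraries were left out, so none of these 4 has a direction in these data.

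The NK receptor level differed more between mice of a genotype than between the genotype means. Summed over the 8 genes, the level was 6.08, 4.92 and 7.82 FPKM in WT and 8.35, 4.75 and 7.28 FPKM in *Crlf2-/-* hearts. *Crlf2-/-* replicate 1 was among the 3 highest libraries for 8 of 8 genes, whereas *Crlf2-/-* replicate 2 was among them for 0 of 8 and among the lowest 2 for 5 of 8. The means were 6.28 ± 1.46 and 6.79 ± 1.85 FPKM (SD, n = 3), 1.08-fold in *Crlf2-/-*. *Klrd1* supplied the largest share of this sum in every library. Against *Ptprc*, the gene for CD45 on all leukocytes, the sum was 0.619 ± 0.0579 in WT and 0.609 ± 0.113 in *Crlf2-/-* hearts.

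**Figure D2:**
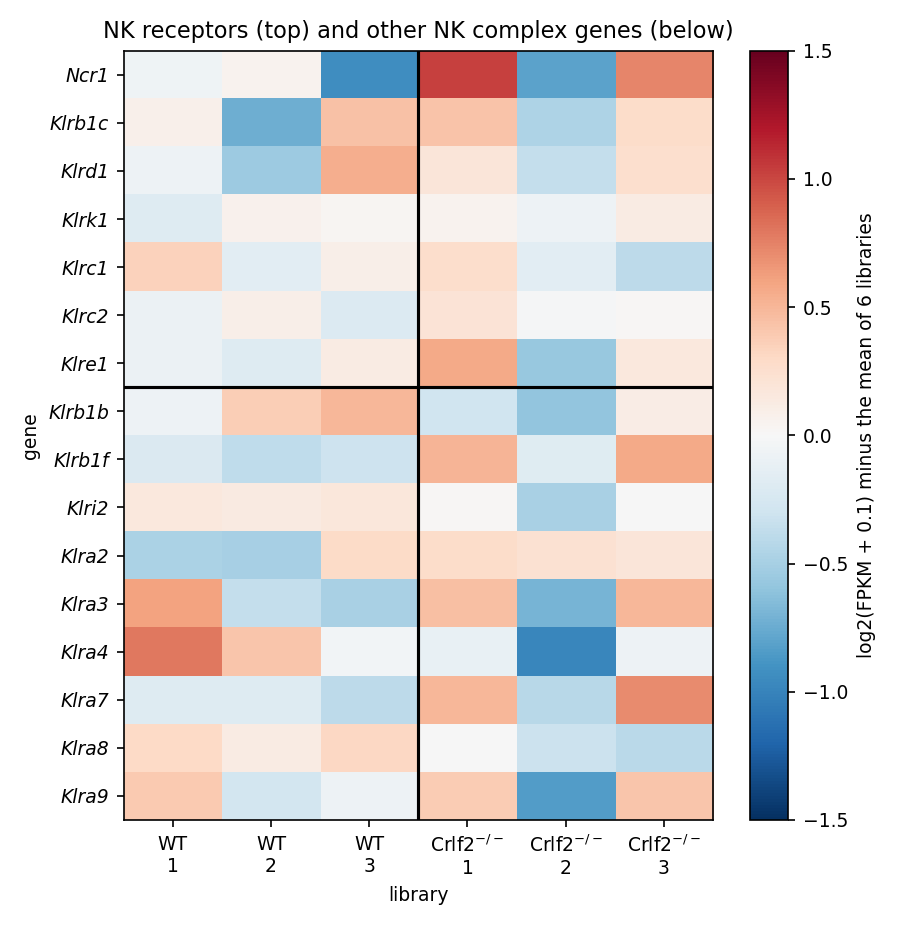
Level of each gene in each library as log2(FPKM + 0.1) minus its mean over the 6 libraries, red for above and blue for below, with the 7 tested NK receptor genes above the line and 9 other genes of the NK gene complex under it. *Crlf2-/-* replicate 2 is below the mean for all 7 upper genes and *Crlf2-/-* replicate 1 above it.

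How closely the genes moved together was uneven. *Klre1* followed the mean of the other 6 tested genes most closely over the 6 libraries, with Pearson's r of 0.957 as a description, followed by *Klrb1c* at 0.694 and *Klrd1* at 0.513. *Klrc1* had the lowest, 0.181. The 5 genes outside the set whose levels ran most like the mean of the 7 were *Epb41l1* (r = 0.991), *Elmo1* (0.989), *Carmil1* (0.987), *Fam91a1* (0.983) and *Pfkfb3* (0.983). These are the highest of 15520 genes over only 6 libraries that share the same mice, and they are given without a test.

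Ligands of these receptors, and that of the related receptor Klrb1b, were read in the same tissue. Of 7 ligand genes tested, 4 were higher and 3 lower, and 1, *H2-T23*, had an unadjusted p under 0.05. Of all genes tested, 6.58% had such a p and 11.7% had groups that did not overlap. *H2-T23* encodes the heavy chain of Qa-1, which CD94 with NKG2A or NKG2C binds. It was at 33.0, 33.6 and 29.5 FPKM in WT and at 33.9, 49.5 and 42.1 FPKM in *Crlf2-/-* hearts, so every *Crlf2-/-* heart was above every WT heart, replicate 1 only barely. The log2 difference was 0.37 (SE 0.15) with an adjusted p of 0.709 (limma). The NKG2D ligands *Raet1d*, *Raet1e* and *Ulbp1* had log2 differences of 0.10, 0.22 and -0.05. *Cdh1* and *Cdh2*, the cadherins that Klrg1 binds, had -0.30 and 0.04. *Clec2d*, the ligand of the inhibitory receptor Klrb1b, had -0.33, at 28.5 ± 1.20 FPKM in WT and 23.3 ± 7.48 FPKM in *Crlf2-/-* hearts (SD, n = 3). *H60b* and *H60c* were under the filter.

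Among the adaptors and early signalling genes, 0 of 12 tested passed the adjusted threshold, 0 were higher and 2 lower at an unadjusted p under 0.05 (limma). Such a p was found in 6.58% of all genes tested, and groups without overlap in 11.7%. The adaptors shared by the activating Klr receptors overlapped between groups: *Tyrobp*, for DAP12, was at 190 ± 55.5 and 157 ± 14.5 FPKM, *Hcst*, for DAP10, at 4.22 ± 1.31 and 3.22 ± 0.131 FPKM, and *Fcer1g* at 173 ± 38.2 and 170 ± 18.1 FPKM in WT and *Crlf2-/-* hearts (SD, n = 3). Myeloid cells express these adaptors too. The 2 lower genes were *Cd247*, which encodes CD3 zeta, and *Zap70*, the kinase that binds it, both also used by the T cell receptor. *Cd247* was at 0.632, 0.498 and 0.377 FPKM in WT and at 0.0765, 0.136 and 0.150 FPKM in *Crlf2-/-* hearts, without overlap, a log2 difference of -1.44 (adjusted p = 0.149, limma). *Zap70* had a log2 difference of -0.90 (adjusted p = 0.355, limma).

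The table lists 19 other receptors of the NK gene complex, of which 9 passed the filter. Of these, 4 were higher and 5 lower, with a median of -0.03 that rested on single libraries: it was 0.38 without *Crlf2-/-* replicate 2, -0.31 without *Crlf2-/-* replicate 1 or 3, -0.17 without WT replicate 2 and -0.08 without WT replicate 1 or 3. It was also -0.31 over the genes with at least 10 fragments in every library. At an unadjusted p under 0.05, 1 was higher and 2 were lower, and 0 were called after adjustment (limma). Over all genes tested, 6.58% had such a p. *Klrb1f*, a neighbour of *Klrb1c*, was at 0.367, 0.316 and 0.338 FPKM in WT and at 0.671, 0.380 and 0.703 FPKM in *Crlf2-/-* hearts, a log2 difference of 0.60 (adjusted p = 0.741, limma). The *Crlf2-/-* hearts were all higher, and 11.7% of all genes tested had groups apart in this way, in either direction. The lower ones were *Klra4* and *Klra8*, which encode Ly49D and Ly49H, activating receptors that signal through DAP12, with log2 differences of -0.78 and -0.49 (adjusted p = 0.712 and 0.700, limma). *Klra8* was at 1.11, 0.971 and 1.12 FPKM in WT and at 0.885, 0.689 and 0.642 FPKM in *Crlf2-/-* hearts. The inhibitory Ly49 genes *Klra2*, *Klra3*, *Klra7* and *Klra9* had log2 differences of 0.46, 0.17, 0.53 and -0.03, of which *Klra2* had the highest level, at 2.99 ± 1.02 FPKM in WT and 4.02 ± 0.131 FPKM in *Crlf2-/-* hearts (SD, n = 3), with overlapping hearts. The inhibitory *Klrb1b*, whose protein binds Clec2d, had -0.52 (adjusted p = 0.810, limma). The Ly49 genes are close copies of each other, so their fragment counts are uncertain.

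NK cells are also recognised by transcription factors and by cytotoxic proteins. Of 10 transcription factor genes, 5 were higher and 5 lower, and *Tbx21* and *Id2* were lower at an unadjusted p under 0.05 (log2 differences -0.94 and -0.34, adjusted p = 0.611 and 0.667, limma). Of all genes tested, 6.58% had such a p. *Eomes*, which mature NK cells express with *Tbx21*, was at 0.316, 0.209 and 0.308 FPKM in WT and at 0.512, 0.329 and 0.471 FPKM in *Crlf2-/-* hearts. These ranges did not overlap, as in 11.7% of all genes tested, and the log2 difference was 0.51 (adjusted p = 0.807, limma). As a description of 2 genes whose differences were known, the ratio of *Eomes* to *Tbx21* was 0.461, 0.277 and 0.838 in WT and 1.28, 1.37 and 2.93 in *Crlf2-/-* hearts. The ratio follows from the opposite signs of these 2 genes and has no test. Both genes are also expressed by CD8 T cells.

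Of 12 cytotoxic effector genes tested, 5 were higher and 7 lower, with 1 higher and 5 lower at an unadjusted p under 0.05 and 0 called after adjustment (limma). The share with such a p over all genes tested was 6.58%, and 11.7% had groups apart. The lower ones were *Gzma* and *Gzmb*, for granzymes A and B, *Nkg7*, a protein of cytotoxic granules, *Fasl*, the ligand of the death receptor Fas, and the chemokine gene *Ccl5*. *Gzma* was at 3.999, 4.18 and 4.27 FPKM in WT and at 2.66, 2.04 and 2.52 FPKM in *Crlf2-/-* hearts. *Gzmb* was at 2.86, 2.33 and 3.34 FPKM in WT and at 1.17, 1.28 and 1.30 FPKM in *Crlf2-/-* hearts. In both granzyme genes the groups were well apart. The coefficient of variation of *Gzma* was 3.30% in WT and 13.5% in *Crlf2-/-* hearts, against 10.4% and 13.5% from counting. That of *Gzmb* was 17.8% and 5.74%, against 10.5% and 15.7% from counting. The log2 differences of *Gzma* and *Gzmb* were -0.77 and -1.11 (adjusted p = 0.149 and 0.109, limma), and those of *Nkg7*, *Fasl* and *Ccl5* were -1.25, -0.99 and -0.85. *Prf1*, the pore-forming protein perforin, was at 0.673 ± 0.146 and 0.572 ± 0.198 FPKM (SD, n = 3), with overlapping hearts. *Gzmc*, for granzyme C, had the opposite sign, at 1.08, 1.18 and 0.970 FPKM in WT and 1.82, 2.29 and 2.24 FPKM in *Crlf2-/-* hearts, a log2 difference of 0.91 (adjusted p = 0.149, limma).

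Other surface receptors of NK cells and the cytokine receptors that sustain them gave few differences. Of 12 surface receptors tested, 2 were higher and 10 lower, and *Cd226* and *Cd160*, both also found on T cells, were lower at an unadjusted p under 0.05 (log2 differences -0.85 and -0.51). Among all genes tested, 6.58% had such a p. Of 11 cytokine receptor and cytokine genes, 3 were higher and 8 lower, and 0 had an unadjusted p under 0.05. *Il2rb*, the receptor chain for IL-15 on NK cells, was at 2.13 ± 0.353 and 1.75 ± 0.436 FPKM in WT and *Crlf2-/-* hearts (SD, n = 3), and *Il15* at 4.22 ± 0.292 and 3.98 ± 0.133 FPKM.

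Markers of other cells that carry Klr receptors were read beside these values. Of 14 T cell markers, 13 were lower in *Crlf2-/-* hearts at an unadjusted p under 0.05 and 12 were without overlap, with a median log2 difference of -1.12, although 0 passed after adjustment (limma). Over all genes tested, 6.58% had such a p in either direction and 11.7% were without overlap. *Cd8b1*, for the CD8 beta chain, was at 3.36, 5.30 and 3.79 FPKM in WT and at 1.34, 1.12 and 1.53 FPKM in *Crlf2-/-* hearts, a log2 difference of -1.55 (adjusted p = 0.0778, limma). *Cd4* was the exception, with a log2 difference of 0.02. *Trdc*, for the constant chain of the gamma delta receptor, had 0.53, and *Zbtb16*, for the factor PLZF of NKT and other innate-like lymphocytes, -1.80 (adjusted p = 0.0851, limma). *Trdc* was low, at 0.116 ± 0.0614 and 0.207 ± 0.0649 FPKM in WT and *Crlf2-/-* hearts (SD, n = 3). The 5 listed gamma delta and innate-like T genes, *Zbtb16* among them, summed to 2.14 to 2.99 FPKM in WT libraries. In *Crlf2-/-* libraries they summed to 1.30 to 1.45 FPKM. Which cells of the bulk tissue held the *Zbtb16* transcript was not tested, so its level does not count innate-like lymphocytes. With DESeq2 at the same thresholds, the study itself reported *Cd3e*, *Lck*, *Cd6*, *Ccl5* and *Zbtb16* as downregulated in *Crlf2-/-* hearts. Of 8 markers of type 2 innate lymphoid cells, 4 were tested and 0 had an unadjusted p under 0.05, while *Il13* had no fragment in any library. Both B cell and macrophage markers gave 0 genes with an unadjusted p under 0.05, of 6 and 7 tested, and their summed levels overlapped between the groups. All 7 macrophage and pan-leukocyte markers had log2 differences above 0 (median 0.097), while the B cell markers had 3 above and 3 below.

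**Figure D3:**
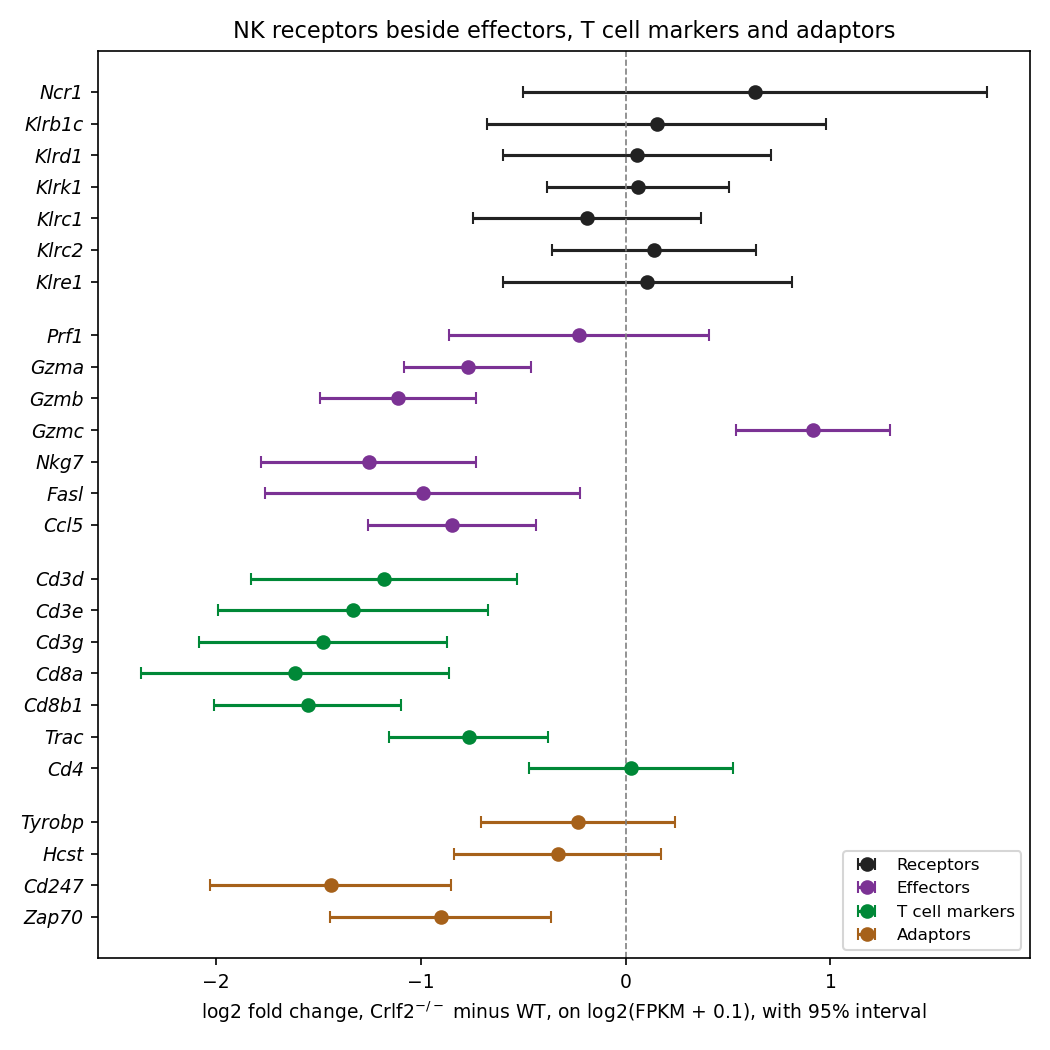
Log2 difference (*Crlf2-/-* minus WT, on log2(FPKM + 0.1)) with its 95% interval from the limma fit, for the 7 tested NK receptor genes, 7 effector genes, 7 T cell markers and 4 adaptor or signalling genes. The genes beside the receptors were picked from longer lists. They hold the 1 higher and 5 lower effector genes and the 2 lower signalling genes with an unadjusted p under 0.05. The tested effector genes not drawn had 0.60 (*Xcl1*), 0.08 (*Serpinb9*), 0.04 (*Tnfsf10*), 0.02 (*Ccl4*) and -0.14 (*Ccl3*). Signalling genes not drawn ran from -0.28 (*Syk*) to 0.18 (*Vav1*). All 7 receptor intervals cross 0, whereas those of *Gzma*, *Gzmb*, *Cd247* and the T cell markers other than *Cd4* lie below it and that of *Gzmc* above.

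NK receptor and T cell transcripts were also set side by side in each heart. The CD3 chains *Cd3d*, *Cd3e* and *Cd3g* summed to 3.61, 4.74 and 2.64 FPKM in WT and to 1.38, 1.29 and 1.18 FPKM in *Crlf2-/-* hearts, 0.351-fold by the means. The summed NK receptor level divided by the CD3 chain level was 1.69, 1.04 and 2.97 in WT and 6.03, 3.68 and 6.14 in *Crlf2-/-* hearts. Every *Crlf2-/-* heart had a higher ratio than every WT heart, 5.29 ± 1.39 against 1.90 ± 0.982 (SD, n = 3). This is a description of a sum chosen with these results known, and it has no test. The red blood cell and fibroblast marker sums did not overlap between the groups either, and all 7 dendritic cell and 8 cardiomyocyte markers had log2 differences below 0, as given above. Their part in the ratio was not tested.

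**Figure D4:**
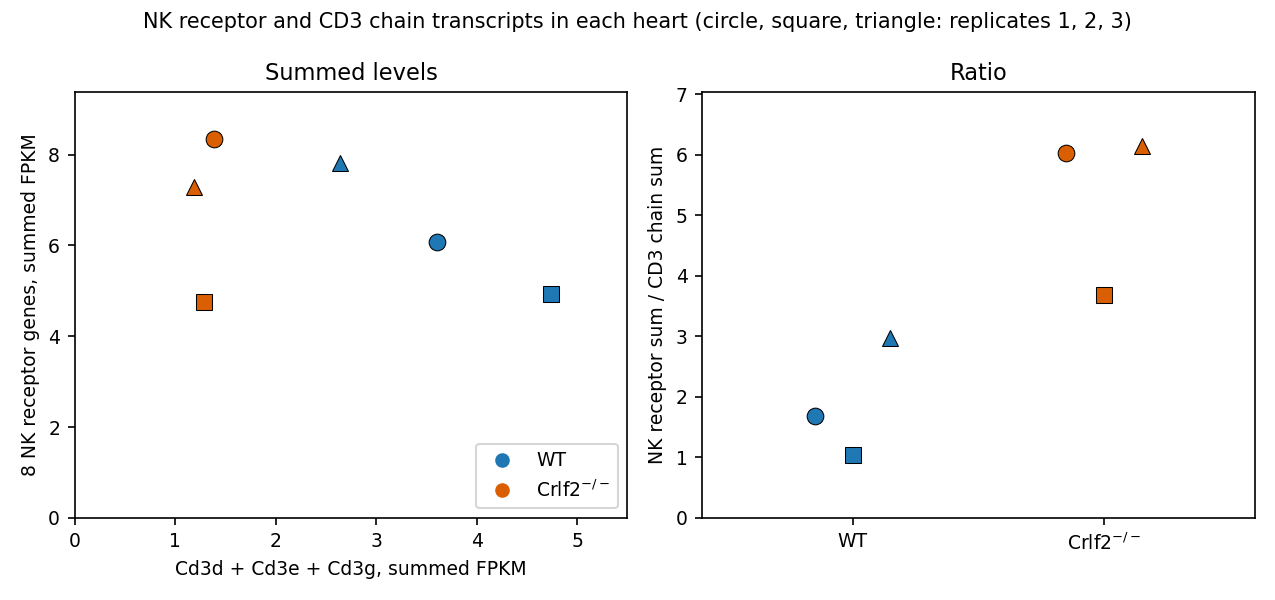
Left, summed FPKM of the 8 NK receptor genes against summed FPKM of the 3 CD3 chain genes, 1 point per heart. Right, their ratio by group, where the 3 *Crlf2-/-* hearts lie between 3.68 and 6.14 and the 3 WT hearts between 1.04 and 2.97.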

How the data were processed

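RNA from the hearts of 3 WT and 3 *Crlf2-/-* mice, grouped by sample title, was sequenced by the study. Per the labels and the methods, the authors trimmed reads with fastp, aligned them with HISAT2 2.0.5, counted fragments with featureCounts and deposited FPKM per gene. The labels list both a human and a mouse build, and the table's gene coordinates match GRCm38. The extraction text in the labels speaks of another tissue. The tissue label and the methods say heart, and cardiac markers were abundant. FPKM times gene length gave whole fragments (tolerance 0.1 of a fragment), 18508646 to 19682428 per library. The coefficients of variation from counting were taken from these fragments and cover counting error only. The intervals given with the log2 differences are from the limma fit and rest on the spread between libraries of a group. The table held 0 columns of other samples. The authors' own test was DESeq2, which called more genes at the same thresholds than limma did here. That test was not repeated, and voom on the recovered fragments stands as an alternative.

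After scaling with trimmed means of M values (TMM), limma 3.58.1 in R 4.3.3 (trend, robust) was run on log2(FPKM + 0.1), which understates changes of low genes. A gene was tested if 3 or more libraries held 10 or more of its fragments and all 6 together 15. A call meant p no higher than 0.05 after Benjamini-Hochberg adjustment over 15520 genes, and a log2 difference of 0.5 or more. The fit was tested on simulated data. Named genes were the 8 receptors, *Crlf2*, list genes with an unadjusted p under 0.05, the nearest ligand, partner or adaptor of each receptor, and the 5 genes most alike. Other genes named with a value (*Eomes*, *Runx3*, *Prf1*, *Il2rb*, *Il15*, *Cd4*, *Trdc*, *Ptprc* and the Ly49 genes with no such p) were chosen after their values were seen. Of the 40 list genes with an unadjusted p under 0.05, those of the other cell types are mostly given as counts. Members and lists were chosen with earlier results of these data known. The replicate numbers pair no mice by label, and their deviations from the group means correlated at -0.016, 0.115 and 0.120 across genes, so they were not taken as pairs. The alternatives were other scalings, filters and pseudocounts, voom, a replicate block, leaving out haemoglobin and mitochondrial genes, and leaving out each library.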

Additional observations from a re-analysis of the deposited data

How the results depend on the processing

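No NK receptor gene passed the adjusted threshold under any of the 15 alternatives, and the smallest adjusted p was 0.656 (limma), for *Ncr1*. Leaving out 1 library at a time turned the sign of 4 of them: *Klrb1c* ran from -0.178 (without WT replicate 2; -0.022 without *Crlf2-/-* replicate 1) to 0.43, *Klrd1* from -0.207 (without WT replicate 2; -0.022 and -0.055 without *Crlf2-/-* replicates 1 and 3) to 0.34, *Klrk1* from -0.016 (without WT replicate 1) to 0.12, and *Klre1* from -0.154 (without *Crlf2-/-* replicate 1) to 0.42. *Ncr1* ran from 0.28 to 1.20. With 1 library left out, 0 to 1 of the genes had an unadjusted p under 0.05 (*Ncr1*, without *Crlf2-/-* replicate 2) and 0 to 2 had groups without overlap (*Ncr1* and *Klre1* without *Crlf2-/-* replicate 2, *Klrc2* without WT replicate 2). Over all genes tested, leaving out 1 library gave shares of 4.22% to 7.43% for the first and 17.2% to 24.8% for the second, so 2 of 8 without overlap is near the 20.2% of all genes without *Crlf2-/-* replicate 2. Tested with no filter, *Klrg1* had a log2 difference of -0.12 (adjusted p = 0.974, limma).

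Over all genes, 2 were called. The count was 6 with no filter, 1 with at least 10 fragments in every library, and 4 with the replicate number as a block, a number shared by samples that no label pairs. It was 3 by voom and 1 to 14 with 1 library left out. Of 1139 comparisons of a value with its alternative, 1086 stayed the same, 7 reversed, 45 moved and 1 became stronger. At 3 to 14 fragments per library, no difference in *Klrg1* could be detected.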
